A study of Homo sapiens with 32 samples.

Results

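The genes described here are the adaptor MYD88, its partners IRAK1 and TRAF6, the NF-kappaB subunits NFKB1, NFKB2, RELA and RELB, the inhibitors NFKBIA and TNFAIP3, and the target gene CXCL8. They were taken by gene symbol from the read count tables of HEK293T cells, a long-established line from human embryonic kidney. All 10 were present, each as 1 row of the 62703 identifiers. The cells carried a CRISPR/Cas9 knockout of IGF2BP1, IGF2BP2 or IGF2BP3, which encode related RNA-binding proteins, or a guide that targets no mammalian gene (the control). No other treatment is named for any group, and whether the control is a clone or a pool is not given in the sources used here. The title of the series concerns IGF2BP proteins and innate immunity in leukemia stem cells, and the libraries described here are from HEK293T cells. The edits came from transient transfection of non-integrating plasmids, 3 guides for 1 gene with a green fluorescent reporter, followed by sorting of single cells. Each knockout was 1 clone, so its libraries repeat the measurement of that clone, and effects of the edited gene and of the clone cannot be told apart. Poly(A) RNA was sequenced from whole cells (total RNA), from the nuclear fraction and from the cytoplasmic fraction, with 4 control libraries and 2 libraries of each knockout per RNA kind, except for 4 cytoplasmic libraries of the IGF2BP3 knockout. The labels name batches: the control is in batches 1 to 4, the IGF2BP1 knockout in 1 and 2, and the IGF2BP2 and IGF2BP3 knockouts in 3 and 4. The added cytoplasmic IGF2BP3 knockout libraries are batch 5, which has no control. Nothing in the labels says that replicates are separate cultures, so p-values measure the spread between these libraries, which may be technical.

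MYD88 is the adaptor through which most Toll-like receptors and the interleukin-1 receptor family signal. It recruits kinases of the IRAK family, and these act with the ubiquitin ligase TRAF6 to switch on the IkappaB kinases. In the resting cell NF-kappaB dimers are held in the cytoplasm by IkappaB proteins such as the product of NFKBIA. When IkappaB is destroyed the dimers enter the nucleus and raise transcription of target genes, among them NFKBIA and TNFAIP3, which feed back on the pathway, and chemokines such as CXCL8 (interleukin-8). NFKB1 and NFKB2 encode the precursors of p50 and p52, and RELA and RELB encode subunits with a transactivation domain. RELB with p52 is the usual pair of the noncanonical branch. The labels say nothing of any stimulus given to these cells, so the values describe RNA of unstimulated cultures.

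Library totals ranged from 13689067 to 26119480 counts. In the IGF2BP1 knockout, library 2 of total RNA and library 1 of nuclear RNA held the same count for every identifier (0 of 62703 differed), which leaves 31 distinct libraries, and which RNA kind that library is cannot be told from the files. It is labelled batch 2 as total RNA and batch 1 as nuclear RNA, so its batch is uncertain too. Fold changes printed for the IGF2BP1 knockout in total and nuclear RNA are therefore also given without it, where 1 knockout library is left in that RNA kind and is assumed to vary like the others. The targeted gene was lower in its own clone in total RNA: IGF2BP1 in the IGF2BP1 knockout (log2 fold change -4.23 ± 0.11, SE, or -4.31 ± 0.11 with adjusted p = 1.19e-23 without the shared library), IGF2BP2 in the IGF2BP2 knockout (-1.31 ± 0.12) and IGF2BP3 in the IGF2BP3 knockout (-1.19 ± 0.10). The relatives moved as well in total RNA: in the IGF2BP2 clone IGF2BP1 (-0.42 ± 0.09) and IGF2BP3 (-0.48 ± 0.10) were lower, and in the IGF2BP3 clone IGF2BP1 was lower (-0.48 ± 0.09) and IGF2BP2 was not called (-0.16 ± 0.11). In the IGF2BP1 clone IGF2BP2 was lower in total RNA (-0.54 ± 0.11, or -0.32 ± 0.09 with adjusted p = 0.0115 without the shared library), and it was not called in nuclear (-0.05 ± 0.10, or 0.13 ± 0.11 with adjusted p = 0.433 without it) or cytoplasmic RNA (0.07 ± 0.05). All 8 markers of the HEK293 line (VIM, NES, NEFM, NEFL, INA, PAX2, KRT8 and KRT18) had counts in all libraries, and their summed level in total RNA was 1076 to 1108 CPM in the control, 760.0 to 797 in the IGF2BP1, 910.4 to 952 in the IGF2BP2 and 596 to 609.9 CPM in the IGF2BP3 knockout. In nuclear RNA the sums were 962 to 1144, 762 to 875, 1177 to 1189.7 and 727 to 733 CPM in the same order, so the IGF2BP2 clone lay above the control there, and in cytoplasmic RNA 1172 to 1391, 809 to 830.4, 1115 to 1139 and 745 to 778 CPM. Of the markers of blood and myeloid cells, PTPRC reached at most 3 counts and CD3E at most 1 count in a library. The sum of PTPRC, CD34, SPI1, CD14, ITGAM, LYZ, CD68 and CD3E was 0.684 to 2.05 CPM in control total RNA, 1.26 to 1.27 in the IGF2BP1, 1.69 to 1.79 in the IGF2BP2 and 2.47 to 2.56 CPM in the IGF2BP3 knockout. It was 1.46 to 1.97, 1.27 to 1.6, 1.97 to 2.35 and 2.93 to 3.33 CPM in nuclear and 1.14 to 1.53, 1.12 to 1.18, 1.29 to 1.48 and 1.93 to 2.65 CPM in cytoplasmic RNA, so it was low everywhere and highest in the IGF2BP3 clone. The part of these marker levels in the results below was not tested.

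Where the genes lie and what stands before their start sites is given first. A link between these sequences and the changes below was not tested. In GENCODE 29 on GRCh38 all 10 are protein-coding. MYD88 (ENSG00000172936) lies on chromosome 3 from 38138478 to 38143022, IRAK1 (ENSG00000184216) on X from 154010500 to 154019980, TRAF6 (ENSG00000175104) on 11 from 36487027 to 36510272 and NFKB1 (ENSG00000109320) on 4 from 102501329 to 102617302. NFKB2 (ENSG00000077150) lies on 10 from 102394110 to 102402529, RELA (ENSG00000173039) on 11 from 65653596 to 65663094 and RELB (ENSG00000104856) on 19 from 45001430 to 45038198. NFKBIA (ENSG00000100906) lies on 14 from 35401511 to 35404749, TNFAIP3 (ENSG00000118503) on 6 from 137867188 to 137883312 and CXCL8 (ENSG00000169429) on 4 from 73740506 to 73743716. Exons of TNFAIP3 share 95 bases with the antisense gene AL357060.1 and those of RELA share 9 bases with AP001362.2 on the opposite strand. The library kit keeps the strand, and whether reads were counted by strand is not given in the sources used here.

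RefSeq promoter windows (GRCh38.p14) were searched on both strands over the 250 bases before each start for the kappaB consensus of 10 bases and for GGNNNTTCC, which overlaps with it. Of all 35116 windows of that length, 9.96% held the first, 17.1% the second and 22.1% either. Among the 9 members with an entry, 6 held a match in at least 1 window (IRAK1, NFKB1, NFKB2, NFKBIA, TNFAIP3 and CXCL8), and MYD88, TRAF6 and RELA held none. A gene can have more than 1 window, and NFKB1 and NFKB2 each have windows with and without a match. The count over genes is therefore not comparable with the shares over windows, and nothing is read from it. RELB has no entry. Windows of 2 targets and 1 subunit with a match are shown 5′ to 3′ in the direction of the gene, up to the first annotated exon base, with the matched bases in capitals: chr14:35404750-35404999 (minus strand), chr4:73740319-73740505 (plus strand) and chr4:102501109-102501328 (plus strand).
NFKBIA: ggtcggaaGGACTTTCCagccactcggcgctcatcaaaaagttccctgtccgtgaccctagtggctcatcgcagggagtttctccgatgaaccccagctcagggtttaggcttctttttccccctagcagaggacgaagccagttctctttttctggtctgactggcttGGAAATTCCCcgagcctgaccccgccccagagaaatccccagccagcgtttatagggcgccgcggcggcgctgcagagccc
CXCL8: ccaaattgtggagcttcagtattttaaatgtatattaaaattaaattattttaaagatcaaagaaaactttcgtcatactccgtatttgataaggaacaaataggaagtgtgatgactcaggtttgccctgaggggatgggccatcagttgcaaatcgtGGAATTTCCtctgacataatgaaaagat
NFKB1: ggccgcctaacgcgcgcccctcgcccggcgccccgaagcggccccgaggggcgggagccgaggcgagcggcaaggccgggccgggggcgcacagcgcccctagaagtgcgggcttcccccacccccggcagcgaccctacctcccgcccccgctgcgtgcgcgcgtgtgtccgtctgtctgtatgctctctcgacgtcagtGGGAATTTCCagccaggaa
Distances are counted from the RefSeq start, and the printed CXCL8 and NFKB1 windows stop 63 and 30 bases short of it, at the first annotated exon base. In the NFKBIA window the matches lie 242 to 234 and 81 to 72 bases before that start, in the CXCL8 window 91 to 83 bases and in the NFKB1 window 49 to 40 bases before it. TNFAIP3 held on the minus strand GGGACTTTCC at 67 to 58 and GGGGATTTCC at 55 to 46 bases before its start. A match describes letters and is not a measured binding site.

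In the control the members differed widely in level. Per kilobase of exon, which allows genes to be compared, control total RNA had 115 ± 2.53 CPM for IRAK1 (mean ± SD, n = 4 here and in the next sentences), the kinase that MYD88 recruits. RELA followed at 12.6 ± 1.7. NFKB1 at 7.77 ± 0.21, NFKBIA at 7.19 ± 0.839 and NFKB2 at 7.12 ± 0.197 were close, and the ranges over libraries of NFKBIA (6.36 to 8.0) and of both neighbours overlapped. TRAF6 stood at 6.08 ± 0.54, with a range that overlapped that of NFKBIA but not that of NFKB2 (5.49 to 6.6 against 6.9 to 7.3). Below them came MYD88 at 2.8 ± 0.27, TNFAIP3 at 1.67 ± 0.205, RELB at 0.619 ± 0.275 and CXCL8 at 0.0567 ± 0.0163 CPM per kilobase, with no overlap between neighbours. The order was the same in cytoplasmic RNA except that NFKBIA stood above NFKB1 and NFKB2. RELB and CXCL8 were thus the members nearest to the limit of detection, with 18 to 52 and 2 to 4 counts in a control library of total RNA. Where a library held 0 counts, a true level of up to 3 counts cannot be told from it, for counting error only.

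**Figure D1:**
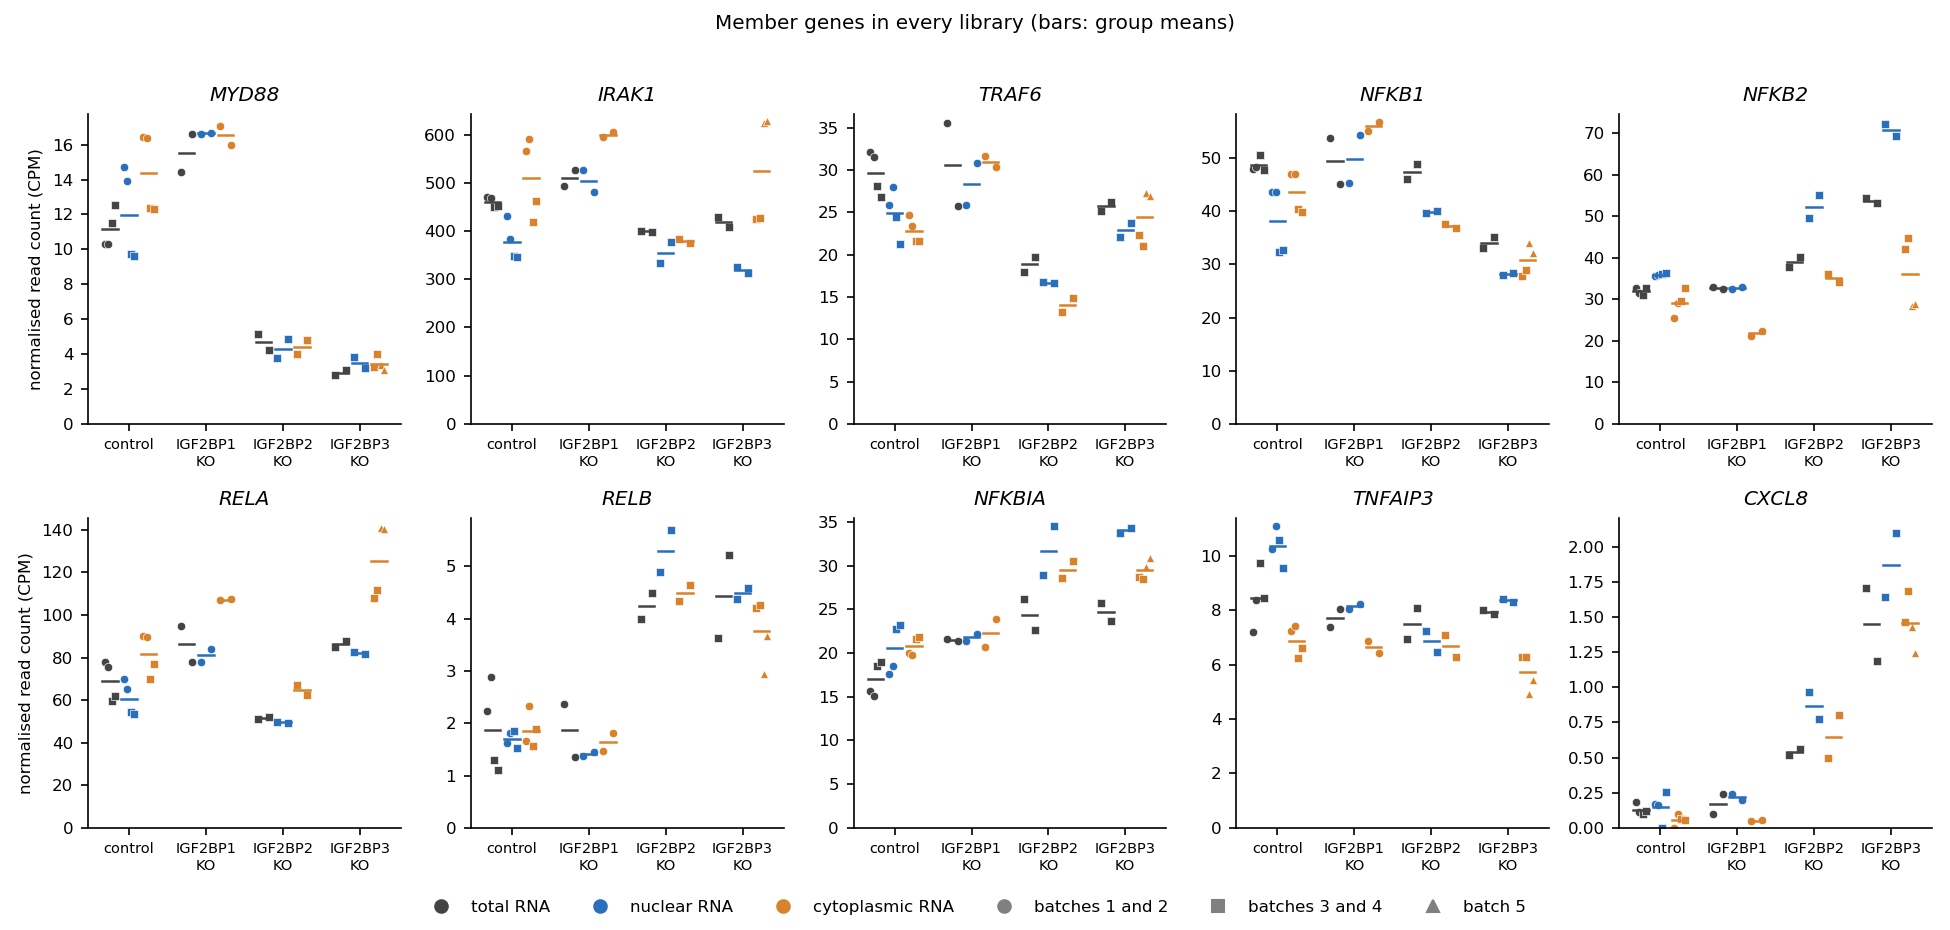
Normalised read count (CPM, linear axis from 0) of each member gene in every library, by genotype; colour gives the RNA kind, shape the batch, and bars the group means. MYD88 of the IGF2BP2 and IGF2BP3 knockouts lies below all control libraries, RELB and CXCL8 of both lie above them, and the batch 5 libraries of NFKB2 lie at the control level.

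Changes against the control were tested per RNA kind in a single edgeR fit with genotype and batch, and a gene was called when its adjusted p, taken over all genes tested, was under 0.05. Values below are normalised read counts (CPM scaled by TMM), with the control libraries in the order of batches 1 to 4, and fold changes are log2 of knockout over control ± SE. The IGF2BP2 and IGF2BP3 knockouts share their control libraries, so their values are set side by side and a likeness between them is not read as a result. In bulk RNA, fewer cells that express a gene and less RNA per cell cannot be told apart.

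MYD88 RNA fell in the IGF2BP2 and IGF2BP3 clones in all 3 RNA kinds, and it was the member with the largest fall in each of them. Total RNA of the control had 10.3, 10.3, 11.5 and 12.6 CPM. The IGF2BP2 knockout had 5.15 and 4.22 and the IGF2BP3 knockout 2.78 and 3.07 CPM, all below the lowest control. Nuclear RNA had 14.7, 13.9, 9.75 and 9.61 in the control, and the IGF2BP2 clone gave 3.8 and 4.84 against 3.83 and 3.18 of the IGF2BP3 clone. Neither fraction had a knockout library of these 2 clones within the control range. Cytoplasmic RNA had 16.4, 16.4, 12.4 and 12.3 in the control against 3.99 and 4.82 in the IGF2BP2 clone and 3.28 and 4.02 in batches 3 and 4 of the IGF2BP3 knockout. The batch 5 libraries, which do not enter the fold change, had 3.37 and 3.1 CPM, as low as batches 3 and 4. The log2 fold change in the IGF2BP2 knockout was -1.37 ± 0.15 in total, -1.14 ± 0.17 in nuclear and -1.49 ± 0.12 in cytoplasmic RNA (adjusted p = 1.46e-05, 2.95e-07 and 1.32e-12). For the IGF2BP3 knockout it was -2.04 ± 0.16 in total, -1.47 ± 0.17 in nuclear and -1.75 ± 0.13 in cytoplasmic RNA (adjusted p = 8.08e-07, 1.21e-09 and 3.24e-14). These calls held under every alternative that was tried.

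The IGF2BP1 clone did not share this fall. MYD88 was at 14.4 and 16.6 CPM in its total RNA, above all control libraries, with a log2 fold change of 0.58 ± 0.13 (adjusted p = 0.00742). Without the library that was deposited as both total and nuclear RNA the value was 0.49 ± 0.16 (adjusted p = 0.0291). The log2 fold change was 0.22 ± 0.14 in nuclear RNA (adjusted p = 0.249), or 0.26 ± 0.17 (adjusted p = 0.272) without that library, and 0.01 ± 0.09 in cytoplasmic RNA (adjusted p = 0.945), and neither was called. The interval of the cytoplasmic value, 2 SE on either side, was -0.17 to 0.19.

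Of the signalling partners of MYD88, TRAF6 fell in the IGF2BP2 clone and was not called lower in the others, and the difference from the IGF2BP3 clone was itself called. The ubiquitin ligase had 32.1, 31.6, 28 and 26.8 CPM in control total RNA, 18 and 19.7 in the IGF2BP2 clone, and 25.2 and 26.2 in that of IGF2BP3. On the log2 scale TRAF6 changed in the IGF2BP2 knockout by -0.54 ± 0.13 in total, -0.46 ± 0.12 in nuclear and -0.62 ± 0.08 in cytoplasmic RNA (adjusted p = 0.00337, 0.00119 and 9.18e-08). In cytoplasmic RNA its libraries (13.3 and 14.8) lay below the control range of 21.5 to 24.6 CPM. The call was lost in total RNA without knockout library 1 and without control 3, at -0.48 (adjusted p = 0.0682), and in nuclear RNA without control 3 at -0.32 (adjusted p = 0.149). The IGF2BP3 knockout gave -0.09 ± 0.12 in total, 0.00 ± 0.11 in nuclear and 0.00 ± 0.08 in cytoplasmic RNA (adjusted p = 0.550, 0.993 and 0.969), none of them called. In the IGF2BP1 clone TRAF6 rose in cytoplasmic RNA to 31.6 and 30.3 CPM (0.37 ± 0.07, adjusted p = 8.93e-05), and was not called in total RNA, where the second library, the shared one, was lower (35.5 and 25.7 CPM), nor in nuclear RNA, with or without that library.

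IRAK1, the member with the highest level per kilobase in the control, had called log2 changes of at most 0.31 in size against the control. Its control levels differed between batches, with 567, 590.3, 419.8 and 462 CPM in cytoplasmic RNA of batches 1 to 4. The cytoplasmic IGF2BP2 knockout had 384 and 375 CPM, with a log2 fold change of -0.22 ± 0.04 (adjusted p = 8.50e-06), which was not called with upper quartile scaling or without the batch term. Nuclear RNA of the IGF2BP1 knockout had 528 and 482 CPM against 431, 385, 347 and 346 in the control and rose by 0.31 ± 0.10 (adjusted p = 0.0218). Without the shared library the value was 0.33 ± 0.11 (adjusted p = 0.0304), and without control 2 it was 0.29 (adjusted p = 0.0677), 1 of 7 alternatives of 21 that lost the call. In the IGF2BP3 knockout the values were -0.11 ± 0.08 in total, -0.12 ± 0.10 in nuclear and -0.05 ± 0.04 in cytoplasmic RNA (adjusted p = 0.287, 0.367 and 0.248), with no call. The batch 5 libraries had 623 and 628 CPM, above both batches 3 and 4 of that clone (425 and 427) and the control.

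Among the NF-kappaB subunits RELB showed the largest change, and it rose in the IGF2BP2 and IGF2BP3 clones in all 3 RNA kinds. Control nuclear RNA had 1.62, 1.82, 1.84 and 1.53 CPM, from 29, 45, 38 and 24 counts. The IGF2BP2 knockout had 4.9 and 5.7 CPM and the IGF2BP3 knockout 4.38 and 4.59 CPM, all above the controls. In total RNA the control libraries were split by batch, at 2.24, 2.89, 1.29 and 1.1 CPM, with 3.99 and 4.5 in the IGF2BP2 and 3.64 and 5.22 in the IGF2BP3 clone. The cytoplasmic libraries had 1.67, 2.33, 1.56 and 1.89 CPM in the control, 4.33 and 4.65 in the IGF2BP2 knockout, 4.2 and 4.26 in the IGF2BP3 knockout and 2.94 and 3.68 in its batch 5, all above the controls. RELB rose on the log2 scale in the IGF2BP2 knockout by 1.79 ± 0.29 in total, 1.64 ± 0.25 in nuclear and 1.38 ± 0.21 in cytoplasmic RNA (adjusted p = 2.73e-04, 5.75e-07 and 6.55e-07). In the IGF2BP3 knockout it was 1.84 ± 0.29 in total, 1.39 ± 0.26 in nuclear and 1.29 ± 0.21 in cytoplasmic RNA (adjusted p = 1.84e-04, 1.16e-05 and 2.00e-06). All 6 calls held under every alternative. The IGF2BP1 knockout gave -0.45 ± 0.29 in total, -0.29 ± 0.30 in nuclear and -0.28 ± 0.25 in cytoplasmic RNA (adjusted p = 0.281, 0.526 and 0.386), none called. Its total RNA value rested on single libraries: it was 0.09 ± 0.32 (adjusted p = 0.886) without the shared library, and -1.09 (adjusted p = 0.0136) with the shared library alone. In nuclear RNA it was -0.32 ± 0.37 (adjusted p = 0.589) without that library.

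NFKB2, the precursor of p52, rose in both of these clones, and more in the IGF2BP3 than in the IGF2BP2 clone. Control nuclear RNA was narrow, at 35.5, 35.8, 36.1 and 36.3 CPM. Nuclear RNA of the IGF2BP2 knockout had 49.5 and 55 and that of the IGF2BP3 knockout 72.1 and 69.3 CPM. Total RNA had 32.7, 31.4, 30.9 and 32.6 in the control, 37.8 and 40.1 in the IGF2BP2 and 54.2 and 53 in the IGF2BP3 knockout, again without overlap. The log2 fold change in the IGF2BP2 knockout was 0.30 ± 0.10 in total, 0.53 ± 0.10 in nuclear and 0.17 ± 0.07 in cytoplasmic RNA (adjusted p = 0.0281, 1.53e-05 and 0.0292). In the IGF2BP3 knockout it was 0.76 ± 0.10 in total, 0.96 ± 0.10 in nuclear and 0.48 ± 0.07 in cytoplasmic RNA (adjusted p = 4.91e-05, 1.70e-11 and 1.31e-07). The cytoplasmic values depended on libraries: batches 3 and 4 of the IGF2BP3 knockout had 42.2 and 44.7 CPM, while its batch 5 libraries had 28.3 and 28.9, inside the control range of 25.4 to 32.6. Without the batch term, where batch 5 counts, the cytoplasmic change of the IGF2BP3 knockout was 0.31 (adjusted p = 0.0817), and the cytoplasmic call of the IGF2BP2 knockout was lost without its library 1, at 0.07 (adjusted p = 0.480), and without control 3. The smaller total RNA change of the IGF2BP2 knockout was lost in 8 of 21 alternatives. The IGF2BP1 clone had 21.2 and 22.4 CPM in cytoplasmic RNA, below every control library, with a log2 fold change of -0.32 ± 0.08 (adjusted p = 8.01e-04), a call that was lost without control 2, without knockout library 2 and without the batch term.

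RELA, the main transactivating subunit of the canonical pathway, rose in the IGF2BP3 clone and not in the IGF2BP2 clone. In total RNA the control had 77.8, 75.8, 59.5 and 62.1 CPM, with batches 1 and 2 above batches 3 and 4. Against that the IGF2BP3 knockout had 84.9 and 87.9 and the IGF2BP2 knockout 51.4 and 52 CPM. Cytoplasmic RNA had 90.1, 89.4, 69.8 and 76.7 in the control, 108 and 112 in the IGF2BP3 knockout, 141 and 140.2 in its batch 5 and 67 and 62.3 in the IGF2BP2 knockout. The IGF2BP3 knockout libraries were above all control libraries in each RNA kind, and those of the IGF2BP2 knockout were below them. For RELA in the IGF2BP3 knockout the fit gave 0.51 ± 0.10 in total, 0.61 ± 0.09 in nuclear and 0.58 ± 0.05 in cytoplasmic RNA (adjusted p = 8.66e-04, 4.94e-07 and 2.62e-12), called under every alternative. The IGF2BP2 knockout gave -0.23 ± 0.10 in total, -0.12 ± 0.10 in nuclear and -0.18 ± 0.05 in cytoplasmic RNA (adjusted p = 0.0655, 0.312 and 0.00362). Its cytoplasmic call was lost with upper quartile scaling and without control 4, at -0.09 (adjusted p = 0.235), or without its own library 2. In the IGF2BP1 clone RELA rose in cytoplasmic RNA to 107 and 107 CPM (0.26 ± 0.05, adjusted p = 4.58e-05). Its nuclear value was 0.26 ± 0.09 (adjusted p = 0.0292), or 0.37 ± 0.11 (adjusted p = 0.0126) without the shared library, and without control 2 it was not called at 0.16 (adjusted p = 0.365). Total RNA gave 0.16 ± 0.10 (adjusted p = 0.240), and 0.29 ± 0.09 (adjusted p = 0.0171) without the shared library.

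NFKB1, the precursor of p50, went the other way from RELA in the IGF2BP3 clone. Total RNA had 47.9, 48.3, 50.6 and 47.8 CPM in the control, 33 and 35.1 in the IGF2BP3 knockout and 46 and 48.8 in the IGF2BP2 knockout. The IGF2BP3 libraries lay below all controls, and the IGF2BP2 libraries overlapped them. The cytoplasmic level was 47, 47, 40.4 and 39.9 in the control and 27.8 and 29 in the IGF2BP3 knockout, with 34 and 32.2 in batch 5. The log2 fold change in the IGF2BP3 knockout was -0.53 ± 0.11 in total, -0.21 ± 0.10 in nuclear and -0.50 ± 0.06 in cytoplasmic RNA (adjusted p = 0.00121, 0.0889 and 2.86e-08), so that the nuclear value was not called. The IGF2BP2 knockout gave -0.05 ± 0.11 in total, 0.29 ± 0.10 in nuclear and -0.11 ± 0.06 in cytoplasmic RNA (adjusted p = 0.708, 0.0156 and 0.126). Its nuclear rise, the 1 call, was lost in 9 of 21 alternatives. NFKB1 rose in cytoplasmic RNA of the IGF2BP1 clone, at 55.1 and 56.8 CPM (0.25 ± 0.06, adjusted p = 5.18e-04). In nuclear RNA of that clone it was 0.19 ± 0.10 (adjusted p = 0.161) with the shared library and 0.32 ± 0.12 (adjusted p = 0.0436) without it.

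NFKBIA, which encodes the inhibitor IkappaB-alpha and is itself a target of NF-kappaB, rose in the IGF2BP2 and IGF2BP3 clones in all 3 RNA kinds. Control cytoplasmic RNA had 20.0, 19.8, 21.5 and 21.9 CPM. The IGF2BP2 knockout had 28.5 and 30.5, the IGF2BP3 knockout 28.7 and 28.5 and its batch 5 29.8 and 30.8 CPM, and no library overlapped the controls. Nuclear RNA had 17.6, 18.5, 22.7 and 23.2 in the control, 28.9 and 34.5 in the IGF2BP2 and 33.7 and 34.3 in the IGF2BP3 knockout. As log2 fold change this was 0.38 ± 0.11 in total, 0.47 ± 0.11 in nuclear and 0.44 ± 0.08 in cytoplasmic RNA (adjusted p = 0.0147, 4.33e-04 and 4.90e-06) for the IGF2BP2 knockout. In the IGF2BP3 knockout it was 0.40 ± 0.11 in total, 0.56 ± 0.11 in nuclear and 0.40 ± 0.08 in cytoplasmic RNA (adjusted p = 0.0100, 2.31e-05 and 2.34e-05). In total RNA the call of the IGF2BP2 knockout was lost in DESeq2, without control 3 or 4 or without either of its own libraries, that of the IGF2BP3 knockout without control 3 or either of its own libraries, and in nuclear RNA that of the IGF2BP2 knockout without its library 2. The IGF2BP1 clone had 21.6 and 21.3 CPM in total RNA against 15.6, 15.1, 18.5 and 19 in the control, a rise of 0.48 ± 0.11 (adjusted p = 0.00863), or 0.47 ± 0.13 (adjusted p = 0.0101) without the shared library. The call was lost without the batch term and with batches 1 and 2 alone. Its nuclear (0.27 ± 0.11, or 0.26 ± 0.14 with adjusted p = 0.177 without that library) and cytoplasmic values (0.17 ± 0.08) in that clone missed the threshold.

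TNFAIP3, which encodes the ubiquitin-editing enzyme A20 and is a classical target as well, was not called higher in any clone. In nuclear RNA it fell in the IGF2BP2 clone, with 7.25 and 6.47 CPM against 10.2, 11.1, 10.6 and 9.55 in the control (-0.56 ± 0.16, adjusted p = 0.00283). That call was lost without control 3 or without knockout library 2. Nuclear RNA of the IGF2BP1 knockout had 8.05 and 8.22 CPM (-0.39 ± 0.15, adjusted p = 0.0457), and of 21 alternatives 17 lost this call, among them the one without the shared library, at -0.43 ± 0.18 (adjusted p = 0.0831). The nuclear libraries of all 3 clones were below every control library. The 7 other values of TNFAIP3 were not called. In cytoplasmic RNA its log2 fold changes were -0.14 ± 0.13, 0.05 ± 0.13 and -0.03 ± 0.13 in the IGF2BP1, IGF2BP2 and IGF2BP3 knockouts, and in total RNA -0.01 ± 0.15, -0.27 ± 0.15 and -0.20 ± 0.14. Without the shared library the total RNA value of the IGF2BP1 knockout was 0.04 ± 0.19 (adjusted p = 0.927).

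CXCL8, the chemokine, passed the filter on low counts only through the knockout libraries, so it had to differ if it was tested at all, and it is given by its counts. Control libraries held 4, 2, 2 and 2 counts in total, 3, 4, 0 and 4 in nuclear and 0, 2, 1 and 1 in cytoplasmic RNA. The IGF2BP3 knockout held 46 and 26, 33 and 43 and, in batches 3 and 4, 38 and 49 counts, and its batch 5 libraries 33 and 28. The IGF2BP2 knockout held 9 and 14, 14 and 18 and 13 and 19 counts, lower than the IGF2BP3 knockout in every RNA kind and above every control library. The IGF2BP1 knockout, at 2 and 5, 5 and 4 and 1 and 1 counts, did not stand apart from the control. Summed counts of the IGF2BP3 knockout, scaled to effective library size, were 13.4 times those of its same-batch controls in total RNA (exact 95% interval 5.03 to 50.7, from 72 against 4 counts). In nuclear RNA the ratio was 17.0 (6.38 to 64.0) and in cytoplasmic RNA 25.6 (6.88 to 215). For the IGF2BP2 knockout it was 4.97 (1.70 to 19.8), 7.68 (2.72 to 29.9) and 10.4 (2.65 to 89.3). For the IGF2BP1 knockout it was 1.15 (0.332 to 4.16), 1.35 (0.449 to 4.28) and 1.01 (0.0730 to 13.9), and without the shared library 0.553 (0.05 to 3.86) in total and 1.24 (0.231 to 6.66) in nuclear RNA. These intervals cover counting error only, since the labels describe no molecular identifiers. They do not allow for the filter, which CXCL8 passed only through knockout libraries. Even in the IGF2BP3 knockout the level of CXCL8 was low, at 1.64 to 2.1 CPM in nuclear RNA.

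**Figure D2:**
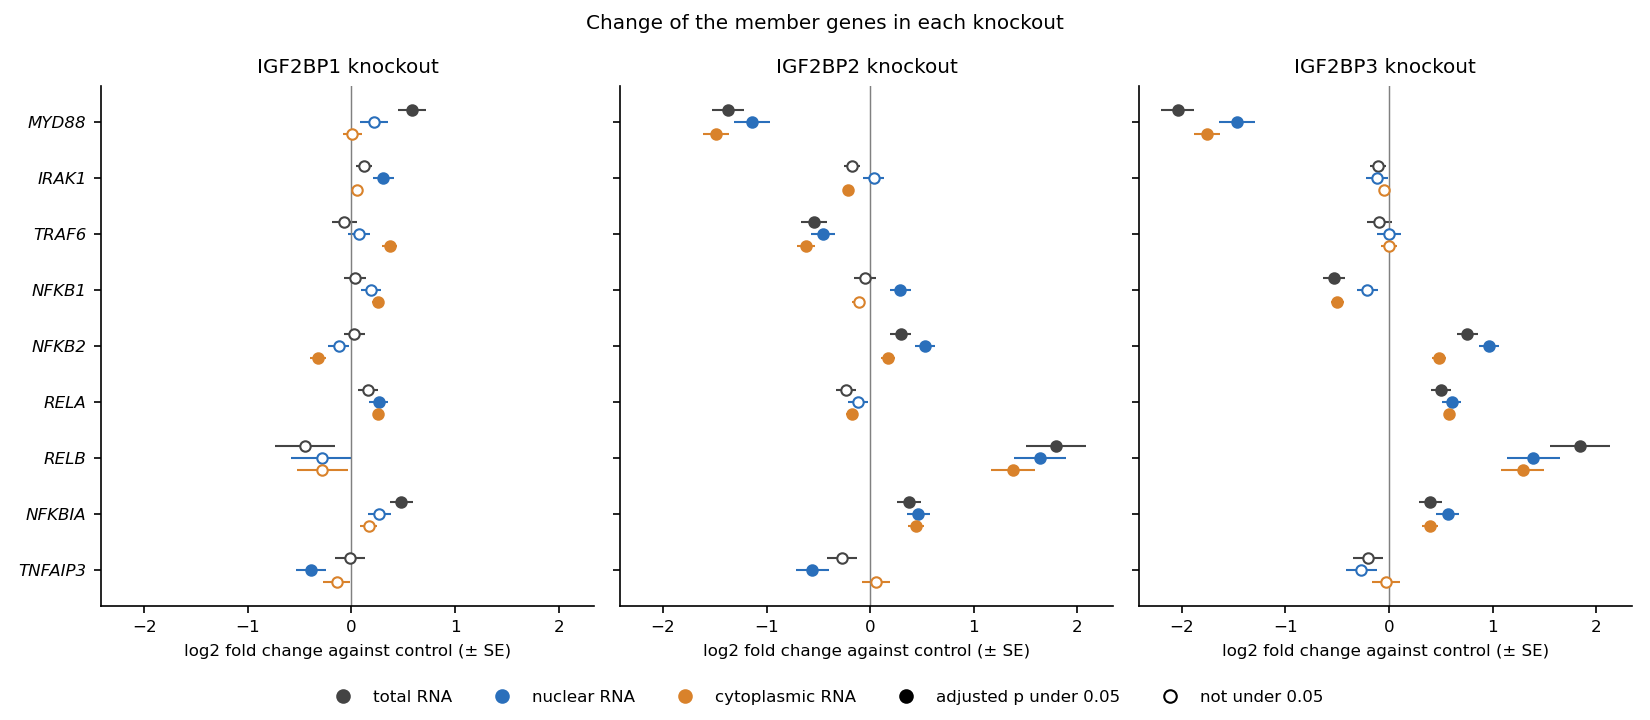
Log2 fold change against control (± SE, edgeR) of the 9 members that passed the filter in control libraries, for each knockout; colour gives the RNA kind and filled points have an adjusted p under 0.05. MYD88 lies at -1.14 or lower in the IGF2BP2 and IGF2BP3 knockouts and RELB at 1.29 or higher, while in the IGF2BP1 knockout every called value lies between -0.39 and 0.58.

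Counted over the 9 members that passed the filter in the control libraries alone, calls were frequent, and so were calls over all genes. In total RNA 2 rose and 0 fell in the IGF2BP1 knockout, where 10.7% of all 18745 genes tested were called higher and 13.5% lower. In the IGF2BP2 knockout 3 rose and 2 fell (23.3% and 23.7% of all genes), and in the IGF2BP3 knockout 4 rose and 2 fell (23.5% and 23.4%). Nuclear counts were 2 and 1 in the IGF2BP1 knockout (12.7% and 13% of 18732 genes), 4 and 3 for IGF2BP2 (24.8% and 24.9%) and 4 and 1 for IGF2BP3 (25.1% and 25.3%). In cytoplasmic RNA they were 3 and 1 (22.5% and 21.9% of 18212 genes), 3 and 4 (30.9% and 33.2%) and 4 and 2 (31.5% and 33.2%). The counts of the IGF2BP1 knockout in total and nuclear RNA include the shared library. Without it 1 knockout library is left in that RNA kind, so no count is given. The median log2 fold change of the 9 members was between -0.18 and 0.19 over the 9 comparisons, beside -0.08 to 0.00 over all genes that passed in the control. In all 3 RNA kinds MYD88 was lower and NFKB2, RELB and NFKBIA were higher in both the IGF2BP2 and the IGF2BP3 clone. TRAF6 was lower in all 3 in the IGF2BP2 clone, and RELA higher in all 3 in the IGF2BP3 clone. Of all 14274 genes that passed in the control in each RNA kind, 15.2% were higher and 19.8% lower in all 3 in the IGF2BP2 clone. In the IGF2BP3 clone these shares were 15.6% and 22.1%. The 2 clones share their controls, so members found in both are not read as a result. With the shared library, the IGF2BP1 clone had no member called in the same direction in all 3 RNA kinds. Of all genes, 4.69% were called higher and 8.01% lower in all 3 there. This depends on that library: RELA was at 0.29 in total and 0.37 in nuclear RNA without it, and at 0.26 in cytoplasmic RNA.

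The direct contrast of the IGF2BP3 and IGF2BP2 clones, both in batches 3 and 4, called members in both directions, as it did among all genes. In total RNA 3 members were higher and 2 lower in the IGF2BP3 clone (21.8% and 21.5% of all genes), in nuclear RNA 3 and 1 (24.1% and 24.1%), and in cytoplasmic RNA 4 and 1 (31.3% and 31.5%). RELA was higher in the IGF2BP3 clone, by 0.74 ± 0.10 in total, 0.73 ± 0.09 in nuclear and 0.76 ± 0.05 in cytoplasmic RNA (adjusted p = 5.81e-05, 1.21e-08 and 1.27e-15). TRAF6 was higher there by 0.45 ± 0.12 in total, 0.46 ± 0.12 in nuclear and 0.63 ± 0.08 in cytoplasmic RNA (adjusted p = 0.0108, 0.00102 and 1.44e-08), and its total RNA call was lost when any 1 of the 4 knockout libraries was left out. The nuclear call was lost without library 2 of the IGF2BP3 knockout, at 0.35 (adjusted p = 0.0955). NFKB2 was higher by 0.46 ± 0.10 in total, 0.43 ± 0.09 in nuclear and 0.31 ± 0.06 in cytoplasmic RNA (adjusted p = 0.00201, 1.69e-04 and 4.84e-05), and its total RNA call was lost without library 1 of either knockout. NFKB1 was lower, at -0.48 ± 0.11 in total, -0.50 ± 0.10 in nuclear and -0.39 ± 0.06 in cytoplasmic RNA (adjusted p = 0.00275, 6.58e-05 and 1.15e-06), with the total RNA call lost without library 2 of the IGF2BP2 or library 1 of the IGF2BP3 knockout. In cytoplasmic RNA IRAK1 was also higher, at 0.17 ± 0.04 (adjusted p = 2.65e-04). MYD88 was lower in the IGF2BP3 clone in total RNA, at -0.67 ± 0.18 (adjusted p = 0.00903), a call that was lost without library 1 of either knockout. In nuclear RNA its difference was -0.33 ± 0.19 and in cytoplasmic RNA -0.26 ± 0.14, not called. RELB, NFKBIA and TNFAIP3 were not called different between the clones in any RNA kind. The interval of the cytoplasmic difference, 2 SE on either side, was -0.39 to 0.22 for RELB and -0.18 to 0.09 for NFKBIA. Without the batch term, where the batch 5 libraries count, the cytoplasmic NFKB2 difference was 0.04 (adjusted p = 0.861). CXCL8 had more counts in the IGF2BP3 than in the IGF2BP2 clone in each RNA kind, as given above.

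In the control the members were spread between the fractions, on a scale where TMM sets most genes to no difference. Of the 9 members 2 were called higher in nuclear RNA and 4 lower, against 32.6% and 33.3% of the 16246 genes tested. TNFAIP3 had the highest ratio of the 9, with 10.2, 11.1, 10.6 and 9.55 CPM in nuclear and 7.25, 7.43, 6.23 and 6.6 in cytoplasmic RNA (log2 nuclear over cytoplasmic 0.50 ± 0.10, adjusted p = 1.82e-04). NFKB2 was also higher in nuclear RNA (0.22 ± 0.07, adjusted p = 0.00918), a call that was lost without cytoplasmic control 1. RELA (-0.51 ± 0.06, adjusted p = 1.04e-07), IRAK1 (-0.51 ± 0.07, adjusted p = 8.35e-07), MYD88 (-0.35 ± 0.09, adjusted p = 0.00125) and NFKB1 (-0.29 ± 0.07, adjusted p = 6.89e-04) were lower in nuclear RNA. The call of MYD88 was lost without the batch term. RELB, NFKBIA and TRAF6 were not called. CXCL8 was not tested there, with at most 4 counts in a control library of either fraction. The fractions were not sharply apart: 4 RNAs known to stay in the nucleus (MALAT1, NEAT1, KCNQ1OT1 and MEG3) summed to 284 to 375 CPM in nuclear and 138 to 162 CPM in cytoplasmic control libraries.

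The knockouts changed that ratio for few members. In the IGF2BP2 clone the nuclear to cytoplasmic ratio of NFKB1 rose by 0.36 ± 0.13 on the log2 scale (adjusted p = 0.0362), and that of TNFAIP3 changed by -0.65 ± 0.22 (adjusted p = 0.0247). In the IGF2BP3 clone the ratio of NFKB2 rose by 0.42 ± 0.13 (adjusted p = 0.0180). NFKB2 in the IGF2BP2 clone had a ratio change of 0.32 ± 0.13 (adjusted p = 0.0764), not called. That is 2 of 9 members in the IGF2BP2 clone, where 17.5% of all 19310 genes were called in either direction, 1 of 9 in the IGF2BP3 clone (10.9%) and 0 of 9 in the IGF2BP1 clone (4.11%). Each of these calls was lost in DESeq2 and when any one of several libraries was left out. The IGF2BP1 test includes the shared library as nuclear RNA, so its count of 0 does not show that ratios were unchanged. The ratio of MYD88 changed by 0.30 ± 0.22 in the IGF2BP2 and 0.23 ± 0.23 in the IGF2BP3 clone, with adjusted p = 0.377 and 0.605, so the fall of its RNA was not shown to differ between the fractions. The summed nuclear RNAs named above were 485 to 528 CPM in nuclear and 592 to 609 CPM in cytoplasmic RNA of the IGF2BP2 clone, and 905 to 1041 and 275 to 703 CPM in the IGF2BP3 clone. The last range includes the batch 5 libraries, which are not in the ratio test. The part of these sums in the ratio changes was not tested.

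**Figure D3:**
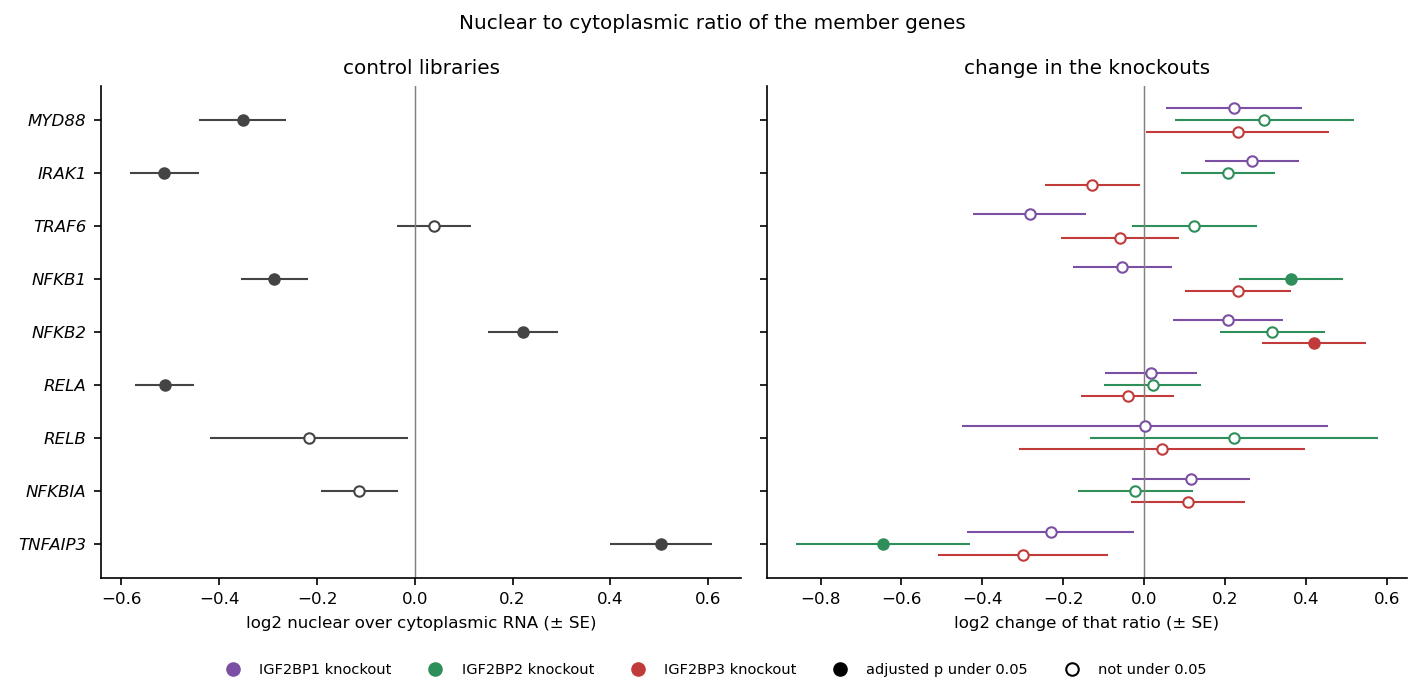
Left: log2 ratio of nuclear to cytoplasmic RNA (± SE) of 9 members in the control. Right: log2 change of that ratio in each knockout, from the libraries of both fractions in batches 1 to 4; filled points have an adjusted p under 0.05. TNFAIP3 at 0.50 and NFKB2 at 0.22 lie to the right in the control, and 3 of the 27 changes are filled. The IGF2BP1 knockout changes include the library deposited as both total and nuclear RNA.

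The wider pathway was read from a list of 80 other genes: receptors, adaptors, kinases, ubiquitin enzymes, the subunit REL, inhibitors and targets. Of these, 51 passed the filter in control libraries of total and nuclear RNA and 49 in those of cytoplasmic RNA. Much of the receptor and target side was almost without RNA: TLR4 had 1 count and TLR9 had 0 counts over all libraries, and IL1B, IL6 and TNF had 2, 26 and 52. In total RNA 5 of 51 genes rose and 7 fell in the IGF2BP1 knockout, 13 rose and 12 fell in the IGF2BP2 knockout, and 12 rose and 9 fell in the IGF2BP3 knockout. In nuclear RNA the counts of 51 were 8 and 7, 13 and 12, and 12 and 13 in the same order. In cytoplasmic RNA the counts of 49 were 16 and 9, 16 and 16, and 20 and 14. Among all genes that passed in control total RNA, 11.5% rose and 16.1% fell in the IGF2BP1, 22.3% and 28.4% in the IGF2BP2 and 21.4% and 28.2% in the IGF2BP3 knockout. In nuclear RNA these shares were 14.2% and 15.1%, 24.6% and 29.2%, and 23.4% and 30%. In cytoplasmic RNA they were 26.1% and 26.6%, 29.4% and 40.8%, and 28.9% and 40.9%. The median log2 fold change of the list in total RNA was -0.04, 0.02 and 0.05, beside -0.02, -0.05 and -0.06 over all genes that passed in the control. Several counts moved by over 1.5 times when 1 library was left out, as given in the closing section.

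Of the listed targets, 5 passed the filter in the control, and in the IGF2BP3 clone 4 of these rose and 1 fell in each RNA kind, beside 21.4% to 28.9% of all genes that passed in the control called higher and 28.2% to 40.9% lower there. With 5 genes nothing is read from this count. GADD45B, a stress-induced gene, rose there by 1.25 ± 0.14 in total, 1.2 ± 0.12 in nuclear and 1.15 ± 0.10 in cytoplasmic RNA (adjusted p = 1.04e-05, 1.04e-11 and 5.04e-12), from 7.35, 6.99, 9.0 and 7.72 CPM in control total RNA to 21.3 and 18.5. PLAU, which encodes urokinase, changed by 1.60 ± 0.31 in total, 1.72 ± 0.26 in nuclear and 1.16 ± 0.21 in cytoplasmic RNA (adjusted p = 9.59e-04, 2.94e-07 and 1.41e-05), with 1.51, 1.17, 0.796 and 1.59 CPM in the control and 3.9 and 3.11 in the knockout. The other 2 that rose were IER3 and BCL2L1, and the 1 that fell was SOD2, mitochondrial superoxide dismutase (-0.61 ± 0.10 in total, -0.53 ± 0.10 in nuclear and -0.65 ± 0.04 in cytoplasmic RNA, adjusted p = 3.81e-04, 8.10e-06 and 2.57e-15). In the IGF2BP2 clone GADD45B rose by 1.07 ± 0.14 in total, 0.89 ± 0.12 in nuclear and 0.87 ± 0.11 in cytoplasmic RNA (adjusted p = 4.30e-05, 4.31e-08 and 9.00e-09) and the survival gene BCL2L1 by 0.74 ± 0.10 in total, 0.92 ± 0.10 in nuclear and 0.82 ± 0.07 in cytoplasmic RNA (adjusted p = 6.43e-05, 4.61e-10 and 6.28e-13). SOD2 also fell in the IGF2BP1 clone (-0.47 ± 0.10 in total, -0.34 ± 0.09 in nuclear and -0.38 ± 0.04 in cytoplasmic RNA, adjusted p = 0.00561, 0.00561 and 2.70e-09). Without the shared library it was -0.26 ± 0.08 (adjusted p = 0.0278) in total and -0.21 ± 0.11 (adjusted p = 0.164) in nuclear RNA, so the nuclear call was lost. The targets that passed only through knockout libraries were CXCL2, CXCL3 and ICAM1, and they are not counted.

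Changes of receptors were not tested between the clones. TNFRSF12A, the receptor of the cytokine TWEAK, rose in the IGF2BP2 clone from 8.21, 7.49, 5.02 and 5.21 to 18.9 and 19.4 CPM in total RNA, with log2 fold changes of 1.91 ± 0.15 in total, 1.97 ± 0.14 in nuclear and 2.20 ± 0.12 in cytoplasmic RNA (adjusted p = 6.72e-07, 3.36e-16 and 1.25e-17). It rose in the IGF2BP3 clone too (0.57 ± 0.16 in total, 0.82 ± 0.15 in nuclear and 0.55 ± 0.14 in cytoplasmic RNA, adjusted p = 0.00894, 6.31e-06 and 9.19e-04). CD40, a receptor that feeds the noncanonical branch, fell in the IGF2BP2 clone from 8.49, 7.32, 9.7 and 10.3 to 3.01 and 2.69 CPM. Its log2 fold changes in that clone were -1.82 ± 0.20 in total, -1.88 ± 0.18 in nuclear and -1.73 ± 0.14 in cytoplasmic RNA (adjusted p = 1.08e-05, 4.53e-12 and 1.57e-12). In the IGF2BP3 clone CD40 was not called, at 0.00 ± 0.16, 0.14 ± 0.15 and -0.09 ± 0.11 in total, nuclear and cytoplasmic RNA. IL18R1, an interleukin-18 receptor chain that signals through MYD88, fell in the IGF2BP3 clone (-1.45 ± 0.19 in total, -1.55 ± 0.23 in nuclear and -1.60 ± 0.19 in cytoplasmic RNA, adjusted p = 4.38e-05, 1.71e-07 and 4.65e-09). IL18R1 stood in the IGF2BP2 clone at 0.44 ± 0.16, 0.25 ± 0.19 and 0.14 ± 0.15 in the 3 RNA kinds, called higher in total RNA. TLR5, the flagellin receptor, rose in the IGF2BP3 clone in total and nuclear RNA. Its log2 fold changes there were 1.32 ± 0.33, 1.45 ± 0.36 and 0.70 ± 0.30 in the 3 RNA kinds, the last of which passed the filter only through knockout libraries. TLR6 fell in the IGF2BP1 clone, from 2.51, 2.44, 3.28 and 3.06 to 0.555 and 1.02 CPM in total RNA (-1.65 ± 0.30 in total, -1.65 ± 0.30 in nuclear and -1.98 ± 0.32 in cytoplasmic RNA, adjusted p = 0.00190, 2.71e-05 and 5.37e-06), where the second total RNA library is the shared one. Without it the value was -2.16 ± 0.43 (adjusted p = 3.52e-04) in total and -1.77 ± 0.38 (adjusted p = 5.66e-04) in nuclear RNA. TLR6 was at 0.15 ± 0.22, -0.37 ± 0.26 and 0.82 ± 0.22 in the IGF2BP2 clone, called higher in cytoplasmic RNA, and at 0.04 ± 0.22, -0.28 ± 0.25 and 0.30 ± 0.23, not called, in the IGF2BP3 clone. TLR6 has close relatives among the Toll-like receptors, and how the counting treated reads that fit more than 1 gene is not given in the sources used here.

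Among adaptors, TRAF1, itself an NF-kappaB target, rose in the IGF2BP2 clone by 1.30 ± 0.17 in total, 0.64 ± 0.16 in nuclear and 2.04 ± 0.16 in cytoplasmic RNA (adjusted p = 5.27e-05, 6.85e-04 and 4.95e-13), and SARM1, which like MYD88 has a TIR domain, by 0.78 ± 0.10 in total, 0.73 ± 0.10 in nuclear and 0.78 ± 0.06 in cytoplasmic RNA (adjusted p = 6.13e-05, 1.92e-08 and 1.11e-13). In the IGF2BP3 clone TOLLIP rose by 0.58 ± 0.11 in total, 0.63 ± 0.10 in nuclear and 0.50 ± 0.06 in cytoplasmic RNA (adjusted p = 7.93e-04, 1.12e-06 and 3.12e-09) and TRAF2 by 0.38 ± 0.11 in total, 0.65 ± 0.10 in nuclear and 0.31 ± 0.07 in cytoplasmic RNA (adjusted p = 0.0118, 2.87e-07 and 1.19e-04). TRAF5 fell in the IGF2BP1 clone (-0.58 ± 0.11 in total, -0.96 ± 0.11 in nuclear and -0.60 ± 0.09 in cytoplasmic RNA, adjusted p = 0.00249, 2.50e-09 and 5.45e-07). Without the shared library TRAF5 was -0.66 ± 0.13 (adjusted p = 2.24e-04) in total and -1.03 ± 0.14 (adjusted p = 2.84e-07) in nuclear RNA. Among kinases and their partners, CHUK, the IkappaB kinase alpha, fell in the IGF2BP1 clone (-0.49 ± 0.09 in total, -0.33 ± 0.09 in nuclear and -0.27 ± 0.05 in cytoplasmic RNA, adjusted p = 0.00215, 0.00602 and 4.18e-05), and without that library it was -0.40 ± 0.09 (adjusted p = 0.00119) in total and -0.39 ± 0.11 (adjusted p = 0.00827) in nuclear RNA. RIPK1 rose in the IGF2BP1 clone (0.45 ± 0.11 in total, 0.50 ± 0.10 in nuclear and 0.44 ± 0.06 in cytoplasmic RNA, adjusted p = 0.0133, 8.85e-05 and 3.68e-07), at 0.38 ± 0.11 (adjusted p = 0.0130) in total and 0.61 ± 0.12 (adjusted p = 1.13e-04) in nuclear RNA without that library. It also rose in the IGF2BP3 clone (0.52 ± 0.12 in total, 0.41 ± 0.10 in nuclear and 0.37 ± 0.06 in cytoplasmic RNA, adjusted p = 0.00261, 5.62e-04 and 6.88e-06). IKBKG, the regulatory subunit NEMO, fell in the IGF2BP2 clone (-0.85 ± 0.17 in total, -0.91 ± 0.16 in nuclear and -0.83 ± 0.14 in cytoplasmic RNA, adjusted p = 0.00124, 5.07e-06 and 4.67e-06). It has a near-identical pseudogene, so its value is uncertain. TAB2 rose in the same clone by 0.61 ± 0.14 in total, 0.73 ± 0.10 in nuclear and 0.50 ± 0.04 in cytoplasmic RNA (adjusted p = 0.00268, 5.64e-08 and 2.01e-12), and IRAK2 rose in the IGF2BP3 clone by 0.59 ± 0.13 in total, 0.64 ± 0.16 in nuclear and 0.56 ± 0.11 in cytoplasmic RNA (adjusted p = 0.00218, 8.28e-04 and 6.65e-05).

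Inhibitors split as well. TAX1BP1, a partner of A20, fell in the IGF2BP2 clone (-0.73 ± 0.09 in total, -0.68 ± 0.10 in nuclear and -0.77 ± 0.05 in cytoplasmic RNA, adjusted p = 4.42e-05, 3.43e-07 and 2.05e-16), while NFKBID, a nuclear IkappaB protein, rose there by 0.54 ± 0.17 in total, 0.44 ± 0.16 in nuclear and 1.15 ± 0.19 in cytoplasmic RNA (adjusted p = 0.0195, 0.0171 and 2.28e-06). In the IGF2BP3 clone 4 of 10 inhibitors fell and 0 rose in total and nuclear RNA, and 4 fell and 1 rose in cytoplasmic RNA. Of all genes that passed in the control, 28.2%, 30% and 40.9% fell and 21.4%, 23.4% and 28.9% rose in total, nuclear and cytoplasmic RNA. With 10 genes nothing is read from this count. NFKBIB, which encodes IkappaB-beta, was one of the inhibitors that fell (-0.70 ± 0.11 in total, -0.37 ± 0.12 in nuclear and -0.59 ± 0.08 in cytoplasmic RNA, adjusted p = 2.80e-04, 0.00592 and 5.00e-08), the opposite of NFKBIA in that clone. TNIP2, another partner of A20, fell too (-0.50 ± 0.13 in total, -0.34 ± 0.11 in nuclear and -0.44 ± 0.07 in cytoplasmic RNA, adjusted p = 0.00677, 0.00886 and 2.01e-06). The ubiquitin-conjugating enzyme UBE2N, which works with TRAF6, fell in the IGF2BP3 clone (-0.27 ± 0.09 in total, -0.23 ± 0.10 in nuclear and -0.28 ± 0.04 in cytoplasmic RNA, adjusted p = 0.0275, 0.0391 and 6.16e-07). REL, the subunit c-Rel, fell there in nuclear and cytoplasmic RNA (-0.21 ± 0.20 in total, -1.14 ± 0.17 in nuclear and -0.43 ± 0.13 in cytoplasmic RNA, adjusted p = 0.402, 1.49e-07 and 0.00548). Of the 49 listed genes that passed in the control in all 3 RNA kinds, 1 was called higher and 4 lower in each of them in the IGF2BP1 clone, where 4.69% and 8.01% of all 14274 such genes were. SOD2 is among the 4, and its nuclear call rests on the shared library. The counts were 8 and 8 in the IGF2BP2 clone (15.2% and 19.8% of all genes) and 9 and 8 in the IGF2BP3 clone (15.6% and 22.1%).

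**Figure D4:**
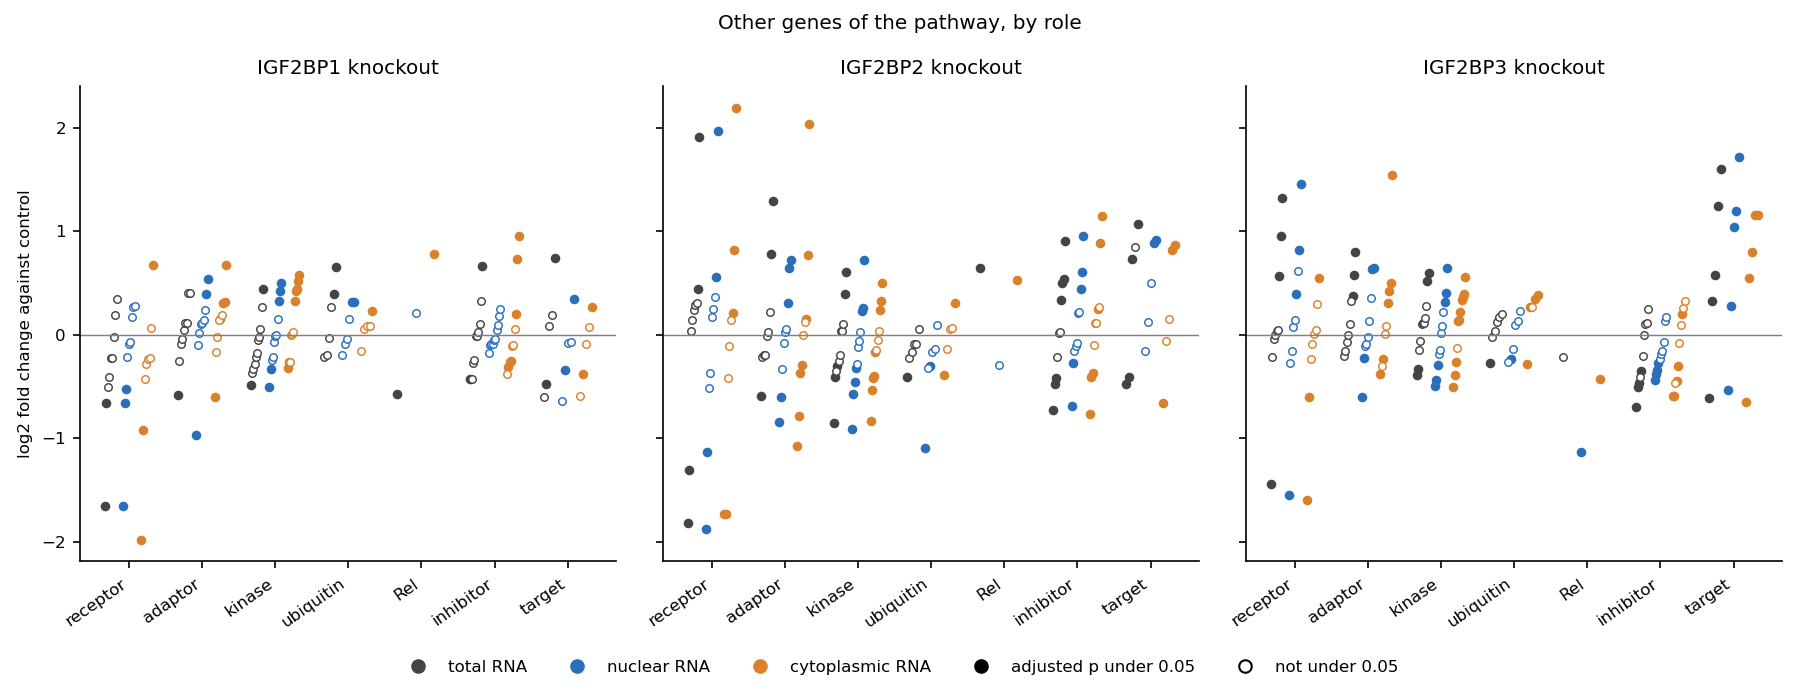
Log2 fold change against control (edgeR) of the listed pathway genes that passed the filter in control libraries, by role and knockout; each point is 1 gene, colour gives the RNA kind and filled points have an adjusted p under 0.05. In the IGF2BP3 knockout 4 of the 5 targets lie above 0 and 1 below it in each RNA kind.

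The genes whose levels followed MYD88 and NFKBIA most closely were sought across the 31 distinct libraries, among 14142 genes, by the correlation of log2(CPM + 1). For MYD88 they were SLC25A13 (r = 0.962), GYS1 (0.958) and RNF216 (0.949). The mean of each was lower in the IGF2BP2 and IGF2BP3 clones, a difference not tested here: SLC25A13 averaged 87.4 CPM in control total RNA, 52.8 in the IGF2BP2 and 44.7 in the IGF2BP3 knockout. For NFKBIA they were WASHC3 (0.915), CKAP2-DT (0.909) and ATP6V1G1 (0.893), with WASHC3 at 12, 24.5 and 20.3 CPM in the same groups. Libraries of a clone, of a batch and of a fraction are not independent points, so these values are a description.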

How the data were processed

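Poly(A) RNA of HEK293T cells was sequenced on a stranded kit as paired reads. The authors deposited read counts per gene and FPKM values for 3 RNA kinds; per the submitters' processing notes STAR, featureCounts, DESeq2 1.44.0 and GRCh38 were used. The deposited FPKM values divide by the genomic span of a gene: CPM over span gave 1.01 times them at the median. Identifiers were named with GENCODE 29. Counts were tested with edgeR 4.0.16 in R 4.3.3 (TMM, filterByExpr by genotype, quasi-likelihood F test, batch and genotype as terms, Benjamini-Hochberg over all genes tested). SE was taken from the fold change and F. Alternatives used DESeq2 1.42.0 and limma 3.58.1 on log2(FPKM + 1) and log2(FPKM + 0.1), which understates changes of low genes, and the script was tested on simulated data. The edgeR coefficient of variation between libraries (BCV) came to 7.87%, 6.88% and 2.89% for total, nuclear and cytoplasmic RNA. This variation may be technical here.

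Library totals were 16179939 to 24690494 counts in total, 13689067 to 26093403 in nuclear and 16720159 to 26119480 in cytoplasmic RNA. The pairing comes from the batch labels and is in the fit; deviations of same-batch control and knockout libraries correlated at -0.157 to 0.0161. Members and lists were chosen with earlier results of these data known. Named were the members and, per role and knockout, up to 2 listed genes with the largest total RNA change among those called in 1 direction in all 3 RNA kinds with a mean of at least 1 CPM; IER3, SOD2 in the IGF2BP3 clone, CD40 there, REL, CXCL2, CXCL3, ICAM1 and the undetected genes were added after their values were seen. The sum over the full list of blood and myeloid markers is not reported here.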

Additional observations from a re-analysis of the deposited data

Results flagged for a closer look

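In 3 cases the nuclear and the cytoplasmic fraction differed in how a member changed, by a test of the difference itself. In the IGF2BP2 clone the log2 nuclear to cytoplasmic ratio of NFKB1 changed by 0.36 (edgeR, adjusted p = 0.0362) and that of TNFAIP3 by -0.65 (adjusted p = 0.0247). In the IGF2BP3 clone that of NFKB2 changed by 0.42 (adjusted p = 0.0180). Over all genes tested, 17.5% were called in the IGF2BP2 and 10.9% in the IGF2BP3 clone, beside 2 of 9 and 1 of 9 members. The number of members called is therefore not read as a result. Of 26 alternatives, 16 lost the NFKB1 call, 9 the TNFAIP3 call and 10 the NFKB2 call. Among the 40 groups of 4 libraries, 0 had a single highest or lowest library beyond Dixon's critical value. Groups of 2 were not examined this way, and that test does not see 2 libraries that differ from the other 2, as for IRAK1 and NFKB2 in batch 5.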

How the results depend on the processing

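Over the 9 members that passed in the control, of 68 called values 40 stayed called in the same direction under every alternative and 28 were lost in some, among them 131 single losses; 11 uncalled values became called in some alternative. With no replicate block (no batch term) 57 of 68 calls held, in DESeq2 59 of 68, with RLE scaling 68 of 68 and with upper quartile scaling 64 of 68. Without the replicate block the count of members was 1 instead of 2 in total RNA of the IGF2BP1 knockout, 1 instead of 2 and 0 instead of 1 for the ratio in the IGF2BP2 and IGF2BP3 knockouts, and the listed genes called in cytoplasmic RNA of the IGF2BP1 knockout were 15 instead of 25. Exchanging the batches of a knockout's libraries, joining batches in pairs and counting CXCL8 as well were chosen after seeing the data. The crossed replicate block kept 45 of 45 calls and leaving out batch 5 kept 22 of 22. Neither could move a fold change much. A crossed knockout stays in its own batches, and batch 5 has no control and its own batch term. These 2 counts are therefore no test of the fold changes.

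In nuclear RNA of the IGF2BP1 knockout 3 members were called, 1 in DESeq2 and without a filter, and 0 with limma on either FPKM scale or with the knockout's own batches. Total RNA gave 1 instead of 2 with its own batches. Total RNA of the IGF2BP2 knockout gave 3 instead of 5 in DESeq2. The ratio count of the IGF2BP2 knockout was 0 in DESeq2 and 1 with no filter or upper quartile scaling, and that of the IGF2BP3 knockout was 0 in DESeq2. Listed genes called in the IGF2BP1 knockout numbered 15 in nuclear RNA and 3 with limma at either offset, and 12 in total RNA, 6 with limma at 0.1, 7 at 1 and 6 with its own batches. IRAK1 in cytoplasmic RNA of the IGF2BP3 knockout went from -0.05 to 0.12 (adjusted p = 0.00608) with upper quartile scaling, which moved the median of all genes there by 0.17. Among 3424 member values, those of CXCL8 included, 123 others changed sign where neither fit called them.

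Leaving out 1 library gave 0 to 3 members in nuclear and 2 to 4 in total RNA of the IGF2BP1 knockout, 4 to 7 in nuclear and 2 to 7 in total RNA of the IGF2BP2 knockout, 1 to 5 between the IGF2BP3 and IGF2BP2 knockouts in total RNA, and 0 to 2 and 0 to 1 for their ratios. Listed genes ranged from 7 to 15 in nuclear and 11 to 22 in total RNA of the IGF2BP1, 12 to 35 in total RNA of the IGF2BP2, and 16 to 28 in nuclear and 10 to 28 in total RNA of the IGF2BP3 knockout. CXCL8 passed the filter only through knockout libraries. Its fitted nuclear change in the IGF2BP2 knockout was 2.84, 1.77 without control 3 and 7.06 without control 4. IRAK1 in cytoplasmic RNA of the IGF2BP2 knockout was -0.13 without control 4. CXCL8 and RELB have few counts, which limits what their control levels can show.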
